A study of Mus musculus with 6 samples.

Results

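Transcripts of 9 genes tied to growth hormone signalling through STAT5 were described in quadriceps muscle. They are the receptor gene Ghr, the kinase gene Jak2 and the transcription factor genes Stat5a and Stat5b. With them are the feedback inhibitor genes Socs2, Cish and Socs3, the growth factor gene Igf1, and Igfbp5, whose product binds IGF1. The data hold transcript levels only, so the activity of the pathway itself was not measured. The 9 genes are 9 of 33641 gene symbols in the table, and their 54 isoform rows are 54 of 105129. They were selected by symbol, with Socs2 as the lead, from TPM values whose homozygous against WT comparison was already known. Their differences between genotypes are therefore given as a description, with no test of the members. TPM is an estimated transcript abundance, divided by transcript length and scaled to a total of 1000000 per library, so levels of different genes can be compared within a library.

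The libraries came from 6 male mice aged 4 months, littermates born to heterozygous parents, with muscle taken at about ZT4 (4 hours after lights on) and frozen. In 3 mice both copies of the glucocorticoid receptor gene carried the rs6190 allele, a copy in mice of a human variant (homozygous). The other 3 carried the reference allele on both copies (WT). The allele is germline, so cells other than muscle fibres carried it too, and no agent was given to either group per the labels.

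Growth hormone binds its receptor at the cell surface, which activates JAK2 bound to the receptor. JAK2 phosphorylates STAT5, which enters the nucleus and switches on target genes, among them Socs2, Cish and, in liver and muscle, Igf1. SOCS proteins bind the activated receptor or kinase and end the signal, so their transcripts serve as a readout of recent signalling and as its brake. The glucocorticoid receptor can bind STAT5 and act with it on shared genes, which is background here and was not measured.

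Whole muscle was sampled, so fewer cells of a type and less RNA per cell cannot be told apart. TPM carries no depth, and depth was estimated from the steps between low values, giving 14.5 to 19.9 M fragments per library (M, 1000000). All 8 muscle markers were detected in every library, and their sum was 73570 to 126563 TPM, which fits the labelled tissue. WT replicate 3 stood apart, with a fast-fibre sum of 230661 TPM against 96718 to 131342 TPM in the other 5 libraries, and a slow-fibre sum of 245 TPM against 1123 to 9714 TPM. For Ghr, Jak2, Socs2, Cish, Socs3 and Igfbp5 the log2 difference is given with and without it. Marker sums and the medians and overlap counts of the gene lists are given only with it. The median difference of all 11099 genes tested was 0.26 (homozygous minus WT, values as log2(TPM + 1)), and 85.8% of genes lay above 0, so a small positive difference is the rule in this table. No source states that the libraries of a group were handled apart from each other, so the spread covers these samples only.

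All 9 genes passed the filter of 1 TPM or more in at least 3 libraries. Of the 9, 0 passed an adjusted p under 0.05 in limma over all genes, where the share called among all genes was 0%. In 3 of the 9 (Ghr, Socs2 and Socs3) every homozygous library lay above every WT library, and 34.7% of all genes did so. In 0 of the 9 did every homozygous library lie below every WT library, as did 0.73% of all genes. The genes were chosen with this comparison known, so nothing is read from these counts. The median difference of the 9 was 0.28 on the log2 scale, close to that of all genes, while the single genes ran from -0.55 to 2.05.

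**Figure D1:**
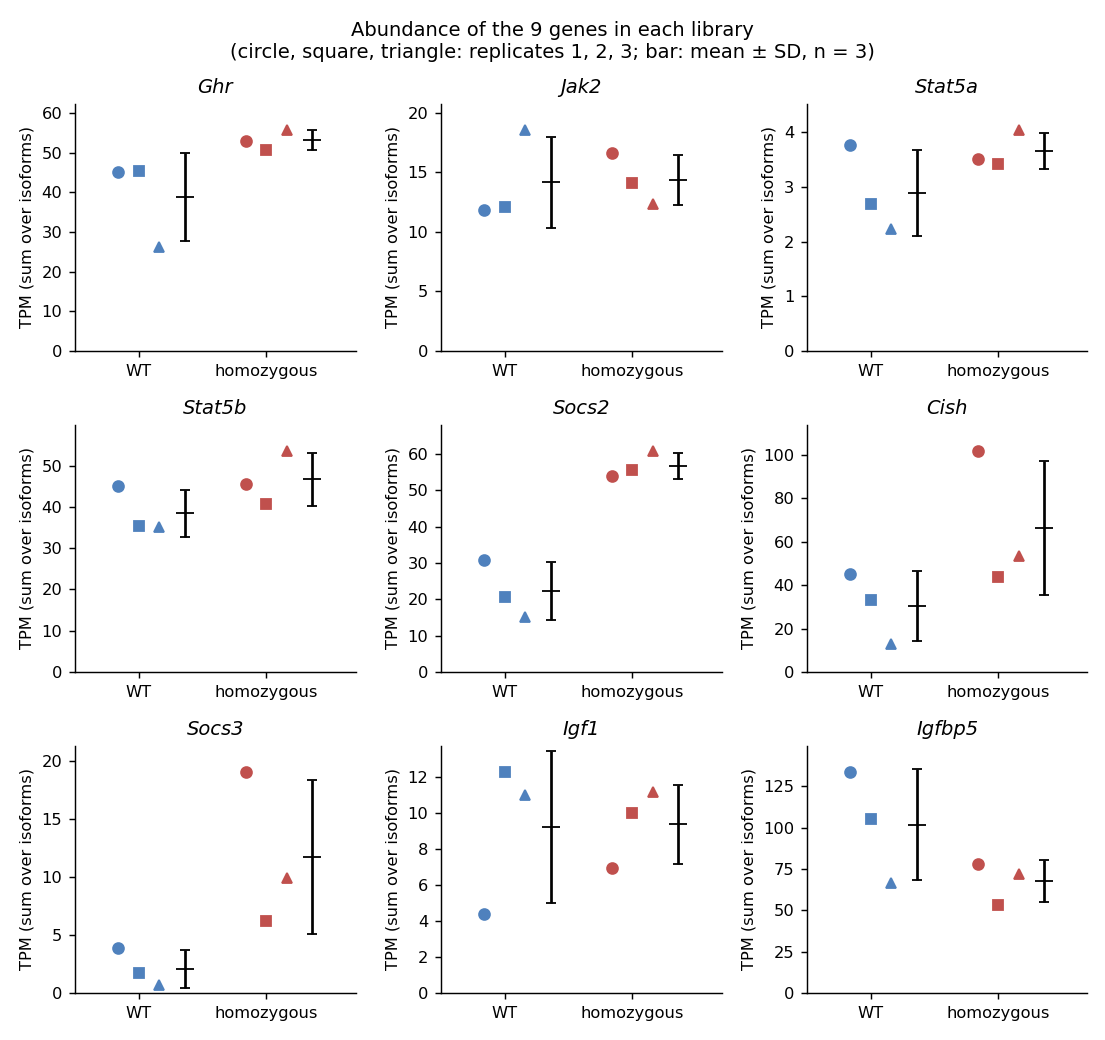
TPM summed over isoforms of the 9 genes (vertical axes, linear from 0) in WT and homozygous libraries; each symbol is 1 library and the bar is the mean ± SD (n = 3). Socs2 is 53.95 to 60.8 TPM in homozygous muscle and 15.1 to 30.9 TPM in WT muscle, while Jak2 and Igf1 overlap between groups.

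The receptor gene Ghr (chromosome 15, 3317760 to 3583492, minus strand, GRCm38) makes 2 main coding isoforms. The longer one (ENSMUST00000069451.10) encodes the whole receptor. The shorter one (ENSMUST00000110698.8) ends in an exon of its own before the transmembrane part and encodes the soluble growth hormone binding protein. The coding part of that exon, 80 bases at chr15:3327607-3327686 on the minus strand, and the 91-base exon that takes its place in the longer isoform, at chr15:3325898-3325988, are shown because they separate a membrane receptor from a secreted protein.
binding protein exon: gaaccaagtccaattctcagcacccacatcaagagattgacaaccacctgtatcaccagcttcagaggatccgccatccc
receptor exon: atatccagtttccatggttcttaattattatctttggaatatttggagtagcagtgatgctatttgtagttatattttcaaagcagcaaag

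Ghr was 53.1, 50.7 and 55.7 TPM in homozygous replicates 1, 2 and 3, and 45.1, 45.3 and 26.2 TPM in WT replicates 1, 2 and 3. The groups did not overlap, but 2 of the WT libraries lay close to the homozygous range and WT replicate 3 lay far below. Group means were 53.2 ± 2.48 and 38.9 ± 10.99 TPM (SD, n = 3 each), a ratio of 1.37, and 1.18 without WT replicate 3. The log2 difference of 0.48 (SE 0.21) exceeded the all-gene median by 0.22. It was 0.23 without WT replicate 3, near the 0.20 of all genes in that setting.

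The binding protein isoform held 26.6%, 20.6% and 20.2% of Ghr in homozygous muscle and 25.03%, 21.7% and 28.6% in WT muscle. The shares overlapped, with means of 22.5% ± 3.57 and 25.1% ± 3.41 (SD, n = 3 each). The receptor isoform was 35.5, 37.5 and 40.6 TPM in homozygous muscle and 31.3, 33.1 and 17.3 TPM in WT muscle. These 2 isoforms together carried most of the gene in every library, and the binding protein share ran from 20.2% to 28.6% across the 6.

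Jak2 (chromosome 19, 29251828 to 29313080, plus strand), the kinase that the receptor activates, was 16.6, 14.1 and 12.4 TPM in homozygous muscle and 11.8, 12.1 and 18.5 TPM in WT muscle. The highest value was that of WT replicate 3, and the groups overlapped. Group means were 14.3 ± 2.13 and 14.1 ± 3.80 TPM (SD, n = 3 each), and the log2 difference was 0.038 (SE 0.20). Its sign changed with the setting, from -0.26 with median centring to 0.24 without WT replicate 3.

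The 2 isoforms of Jak2 in the table did differ between libraries. They have the same coding exons, and ENSMUST00000065796.9 holds an 83-base noncoding exon near its 5′ end (29252437 to 29252519) that ENSMUST00000025705.6 lacks. The isoform without this exon was 3.11, 1.64 and 12.5 TPM in WT muscle and at most 0.013 TPM in the homozygous libraries. It made up 26.3%, 13.6% and 67.6% of Jak2 in WT replicates 1, 2 and 3. The isoform with the exon was 16.6, 14.1 and 12.3 TPM in homozygous and 8.72, 10.4 and 6.004 TPM in WT muscle. Both sets of values were free of overlap, in opposite directions, while the sum over the gene was alike in the 2 groups. The 2 isoforms differ by 1 exon only, so their split rests on the few fragments that touch it, and how the authors' software assigned shared reads was not tested.

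Stat5b (chromosome 11, 100780731 to 100850724, minus strand) and Stat5a (100859351 to 100885169, plus strand) are neighbours that encode closely related factors, of which STAT5B is the main one downstream of growth hormone in liver and muscle. Stat5b was 45.6, 40.8 and 53.5 TPM in homozygous muscle and 45.0, 35.3 and 35.02 TPM in WT muscle. Stat5a was 3.52, 3.43 and 4.04 TPM in homozygous muscle and 3.76, 2.69 and 2.23 TPM in WT muscle. Stat5b thus stood 11.9 to 15.7 times above Stat5a in every library. Both genes overlapped between groups, through WT replicate 1.

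The means of Stat5b were 46.6 ± 6.44 and 38.5 ± 5.69 TPM, and those of Stat5a 3.66 ± 0.329 and 2.89 ± 0.788 TPM (SD, n = 3 each). The log2 differences of 0.27 (SE 0.16) for Stat5b and 0.28 (SE 0.19) for Stat5a equalled the shift of all genes within 0.02, and with median centring they were -0.029 and -0.024. The transcripts of the factor itself therefore moved no further than the bulk of the table.

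Stat5b has 2 first exons with the same coding sequence after them. The isoform from the downstream start (ENSMUST00000107358.8) held 69.7%, 61.3% and 70.8% of the gene in homozygous muscle and 68.2%, 56.3% and 26.2% in WT muscle. The isoform from the upstream start (ENSMUST00000004143.2) was 13.1, 15.5 and 15.1 TPM in homozygous muscle and 13.8, 15.5 and 25.6 TPM in WT muscle. WT replicate 3 was the only library in which the upstream start held the larger share. In Stat5a the main isoform (ENSMUST00000107356.7) was 1.52, 1.58 and 1.45 TPM in homozygous and 2.01, 1.94 and 1.84 TPM in WT muscle, lower in all 3 homozygous libraries although the sum over the gene was not.

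**Figure D2:**
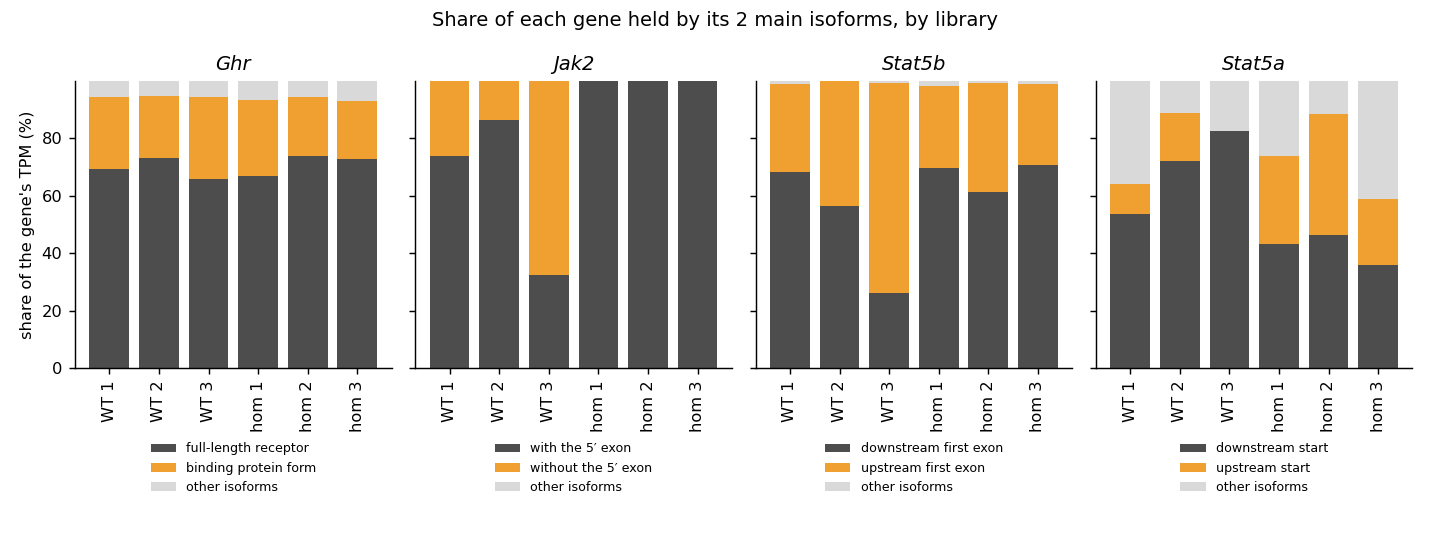
Share of each gene's TPM (vertical axes, percent) held by its 2 main isoforms and by all others in each of the 6 libraries, for Ghr, Jak2, Stat5b and Stat5a. The Jak2 isoform without the 5′ exon holds 13.6% to 67.6% in WT muscle and next to nothing in the homozygous ones, and WT replicate 3 stands apart in Stat5b with 26.2% for the downstream start.

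Of the 54 isoform rows, 51 were above 0 in at least 1 library and 22 passed the filter. Of these 22, 0 passed an adjusted p under 0.05 in limma, beside 0.0425% of all 21165 isoforms tested (9). In 8 of the 22 the homozygous libraries all lay above the WT libraries, as in 25.6% of all isoforms tested, and in 3 they all lay below, as in 2.11%. The 3 lower isoforms are the Jak2 isoform without the 83-base exon, the main Stat5a isoform and a minor isoform of Igfbp5 (ENSMUST00000137339.1). The Igfbp5 isoform was at 0.534 to 0.814 TPM in homozygous and 1.42 to 1.89 TPM in WT muscle.

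The feedback genes showed the widest differences of the 9. Socs2 (chromosome 10, 95385362 to 95417180, minus strand) encodes the SOCS protein that acts mainly on the growth hormone receptor, and mice without it grow large. Socs2 was 53.95, 55.5 and 60.8 TPM in homozygous replicates 1, 2 and 3, and 30.9, 20.5 and 15.1 TPM in WT replicates 1, 2 and 3. The lowest homozygous library lay well above the highest WT library, and the homozygous values lay close together. Group means were 56.8 ± 3.58 and 22.2 ± 8.02 TPM (SD, n = 3 each), a ratio of 2.56, and 2.21 without WT replicate 3.

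The log2 difference of Socs2 was 1.37 (SE 0.23), which exceeds the all-gene median by 1.11, and 0.568% of genes tested had a larger one. It ran from 1.05 to 1.63 over the 12 alternatives and was 1.07 with median centring and 1.14 without WT replicate 3. The gene rested on an estimated 1412 to 1623 fragments in homozygous and 511 to 915 in WT muscle.

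Socs2 has 14 isoform rows, of which 6 passed the filter. The leading isoform (ENSMUST00000020215.15, 3 exons) was 22.2, 23.5 and 36.1 TPM in homozygous muscle and 14.0, 12.8 and 7.32 TPM in WT muscle. The next one (ENSMUST00000170690.7) differs from it in its first exon only and has the same coding exons. It was 2.89, 12.8 and 6.65 TPM in homozygous and 5.93, 3.84 and 2.12 TPM in WT muscle, with overlap. The third (ENSMUST00000172070.7) was 7.54, 5.12 and 4.90 TPM in homozygous and 2.12, 1.74 and 3.29 TPM in WT muscle. The leading isoform held 47.6% ± 10.2 of the gene in homozygous and 51.9% ± 8.91 in WT muscle (SD, n = 3 each), so no single isoform carried the difference of the gene.

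Cish (chromosome 9, 107296026 to 107302784, plus strand) encodes CIS, the first known member of the SOCS family and a direct STAT5 target in blood cells. It was 102, 43.9 and 53.5 TPM in homozygous muscle and 45.1, 33.1 and 13.1 TPM in WT muscle. Homozygous replicate 1 was high and WT replicate 3 low, and the other 4 libraries lay between 33.1 and 53.5 TPM with the groups interleaved. Group means were 66.4 ± 31.0 and 30.4 ± 16.2 TPM (SD, n = 3 each), a ratio of 2.18.

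The log2 difference of Cish was 1.17 (SE 0.48). It was 0.67 without WT replicate 3, 0.82 without homozygous replicate 1 and 0.49 with array weights, the lowest of the 12 alternatives. The main coding isoform (ENSMUST00000085102.5) held 69.0% to 93.4% of the gene. It was 70.3, 41.01 and 46.6 TPM in homozygous and 39.6, 29.2 and 10.9 TPM in WT muscle. Unlike the sum over the gene, these values did not overlap, by a small margin. Of all isoforms tested, 25.6% were likewise higher without overlap. In homozygous replicate 1 a noncoding isoform of 4697 bases (ENSMUST00000165664.1) added 15.5 TPM, against 0.0918 to 2.79 TPM in the other 5.

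Socs3 (chromosome 11, 117966079 to 117970047, minus strand) encodes the SOCS protein best known as the brake on interleukin-6 type cytokines through gp130. It was 19.03, 6.22 and 9.86 TPM in homozygous muscle and 3.89, 1.71 and 0.677 TPM in WT muscle. The groups did not overlap, though homozygous replicate 1 was again the highest and the homozygous values spread widely. Group means were 11.7 ± 6.60 and 2.09 ± 1.64 TPM (SD, n = 3 each), a ratio of 5.60, and 4.18 without WT replicate 3.

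The log2 difference of Socs3 was 2.05 (SE 0.47), the largest of the 9, and 0.135% of genes tested had a larger one. It was 1.68 without WT replicate 3, 1.66 without homozygous replicate 1 and 1.75 with median centring, and over the 12 alternatives it ran from 1.35 with array weights to 2.58 with a pseudocount of 0.1. In WT replicates 2 and 3 the gene rested on an estimated 37.7 and 19.9 fragments, against 156 in WT replicate 1 and 210 to 807 in the homozygous libraries. The WT level is thus the less precise of the 2.

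Marker transcripts of some cell and fibre types differed beside these values. The 11 slow-fibre genes summed to 1902, 9714 and 2241 TPM in homozygous muscle and 1738, 1123 and 245 TPM in WT muscle, without overlap. Of the 11, 7 had no overlap either, all higher, beside 34.7% of all genes. Their median log2 difference was 2.25, against 0.26 for all genes. Pmp22, a gene of myelinating cells that other cells express too, was 24.6, 33.3 and 13.8 TPM in homozygous and 7.89, 12.96 and 8.09 TPM in WT muscle, without overlap. The 8 immune genes summed to 7.74, 11.1 and 11.1 TPM in homozygous and 6.34, 8.23 and 3.45 TPM in WT muscle, with overlap. Only 2 of the 8 were tested, Cd68 and Csf1r (log2 differences of 0.77 and 0.62). Neither overlapped between groups, and the same held for 34.7% of all genes. The 6 satellite cell genes, mostly Des, which muscle fibres express too, summed to 1574, 1858 and 1848 TPM in homozygous and 1565, 1129 and 1224 TPM in WT muscle. These sums did not overlap, by a small margin (1574 against 1565 TPM). Pax7 and Myf5 of this list, named after their values were seen, lay under 1 TPM in every library and overlapped. The adipocyte, fibroblast, endothelial and blood sums overlapped between groups, as did the fast-fibre sum. Of the 12 fast-fibre genes, 2 had a log2 difference above 0, Myh1 (1.77) and Myh2 (1.36), and neither overlapped between groups. The median log2 difference of the 12 was -0.35. The part of these cells or fibre types in the values of Socs2, Socs3 and Cish was not tested. The highest slow-fibre sum was that of homozygous replicate 2.

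A ratio of 2 genes within a library is free of the scale of that library. Socs2 was 1.18, 1.36 and 1.14 times Stat5b in homozygous muscle and 0.686, 0.581 and 0.432 times Stat5b in WT muscle. Against Ghr the ratio was 1.02, 1.09 and 1.09 in homozygous muscle and 0.685, 0.454 and 0.578 in WT muscle. Neither ratio overlapped between groups, and in every homozygous library Socs2 exceeded both the factor and the receptor, while in every WT library it lay below both.

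The ratio of Cish to Stat5b was 2.23, 1.08 and 0.9995 in homozygous and 1.002, 0.936 and 0.374 in WT muscle. It overlapped by a small margin. The ratio of Socs3 to Stat5b was 0.417, 0.153 and 0.184 in homozygous and 0.0864, 0.0483 and 0.0193 in WT muscle, with no overlap.

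**Figure D3:**
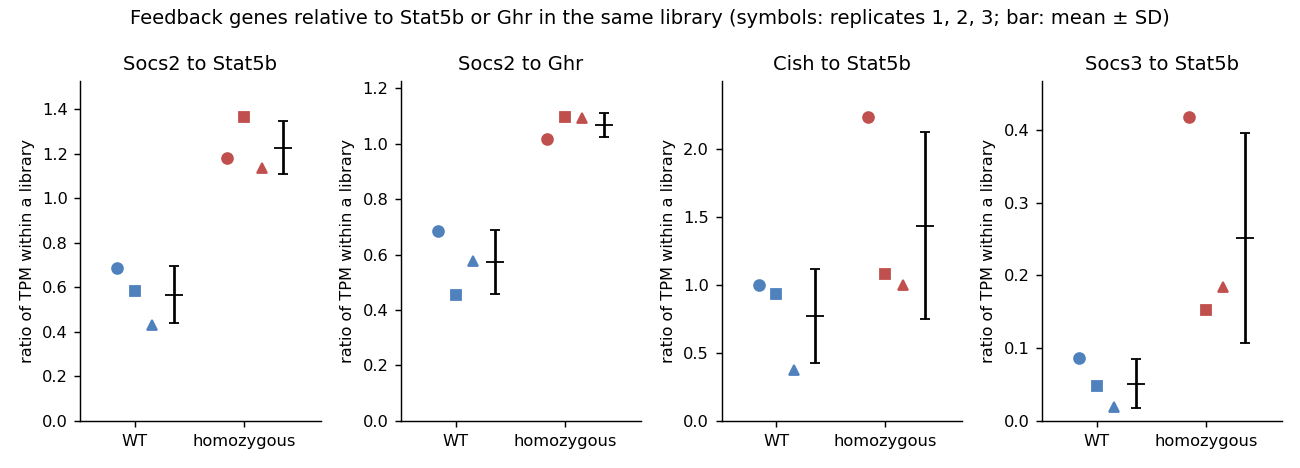
Ratio of TPM values within each library (vertical axes, linear from 0) for Socs2 over Stat5b, Socs2 over Ghr, Cish over Stat5b and Socs3 over Stat5b; each symbol is 1 library and the bar is the mean ± SD (n = 3). Socs2 over Stat5b is 1.14 to 1.36 in homozygous and 0.432 to 0.686 in WT muscle, and Cish over Stat5b overlaps.

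STAT5 binds the letters TTCNNNGAA, which read the same on both strands. RefSeq promoter windows on GRCm38.p6, from 250 bases before to 50 after a start, were found for 8 of the 9 genes (11 windows). No window was found for Socs2. The letters occurred in 2 of the 11 windows, once in that of Socs3 and 2 times in that of Cish, which are the feedback genes with a window. Of 32851 windows of all genes, 8.30% hold the letters at least once and 0.457% at least 2 times. The glucocorticoid receptor half-site AGAACA, on either strand, occurred in 0 of the 11 windows and in 19.0% of all windows. A match of letters is a description and not a bound site, and no match says only that the letters are not in that window.

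The stretches with the motif are shown for Cish at chr9:107296629-107296688, plus strand, and for Socs3 at chr11:117969482-117969550, minus strand, with the motif in capitals. The start used for the Cish window lies 633 bases downstream of that of its main isoform, and the Socs3 start lies 180 bases upstream of that of its main isoform. The 2 Cish motifs begin at bases 1 and 12 after the window's start site, and the Socs3 motif at base -154.
Cish: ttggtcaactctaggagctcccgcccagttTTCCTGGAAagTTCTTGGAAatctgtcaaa
Socs3: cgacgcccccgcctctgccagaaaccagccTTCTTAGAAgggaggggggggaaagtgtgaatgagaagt

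Igf1 (chromosome 10, 87858265 to 87937042, plus strand) encodes insulin-like growth factor 1, which muscle makes for local use. Its 2 main isoforms differ in their ends. The second (ENSMUST00000122100.2) holds a 52-base exon at chr10:87915298-87915349 that the first (ENSMUST00000095360.10) lacks, and this exon changes the E peptide at the end of the precursor, the form also called mechano growth factor. The isoforms also differ in their first exon and in the coding part of the last. The 52-base exon is shown because it is present in only 1 of the 2.
Igf1 exon: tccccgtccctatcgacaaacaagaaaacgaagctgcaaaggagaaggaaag

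Igf1 was 6.95, 10.0001 and 11.2 TPM in homozygous muscle and 4.41, 12.3 and 11.01 TPM in WT muscle. The groups overlapped fully, with the lowest and the highest value both in WT muscle. Group means were 9.38 ± 2.19 and 9.24 ± 4.23 TPM (SD, n = 3 each), and the log2 difference was 0.10 (SE 0.34). It was -0.31 without WT replicate 1, 0.34 without WT replicate 2 and -0.20 with median centring, so no direction can be given.

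Of these 2 isoforms, the one with the 52-base exon (ENSMUST00000122100.2) was 2.45, 2.48 and 3.25 TPM in homozygous and 1.45, 2.29 and 4.15 TPM in WT muscle. It held 29.7% ± 5.23 of Igf1 in homozygous and 29.8% ± 9.91 in WT muscle (SD, n = 3 each). The other (ENSMUST00000095360.10) held 56.6% ± 6.28 and 46.6% ± 8.40. Both shares overlapped between groups. They are shares of single isoforms and not of the exon, since the other Igf1 isoforms were not compared for it.

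Igfbp5 (chromosome 1, 72857932 to 72874884, minus strand) encodes a secreted protein that binds IGF1 and is the most abundant IGF binding protein transcript of this list in muscle. It was the only 1 of the 9 with a lower mean in homozygous muscle. It was 77.99, 53.2 and 71.8 TPM in homozygous muscle and 134, 105 and 66.7 TPM in WT muscle. The groups overlapped through WT replicate 3, the WT library with the lowest value. Group means were 67.7 ± 12.9 and 102 ± 33.6 TPM (SD, n = 3 each), a ratio of 0.664, and 0.566 without WT replicate 3.

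The log2 difference of Igfbp5 was -0.55 (SE 0.26), and 0.919% of genes tested had a smaller one. It was -0.82 without WT replicate 3, -0.85 with median centring and -0.32 without WT replicate 1. Its direction held in all 12 alternatives. With array weights, which give WT replicate 3 a weight of 0.199, the log2 difference was -0.92 for Igfbp5 and 1.05 for Socs2. These 2 members were then among the 810 genes past the limma threshold, 7.30% of all genes tested, and nothing is read from this since the members were chosen on the same comparison. In the other 11 alternatives 0 of the 9 were past it.

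**Figure D4:**
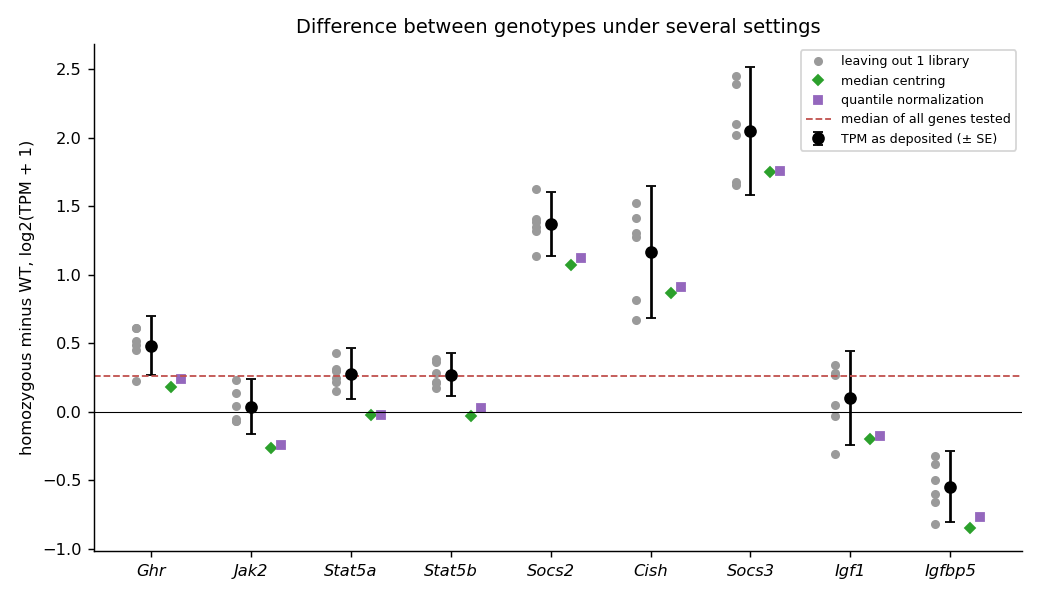
Difference between homozygous and WT muscle on the log2(TPM + 1) scale (vertical axis) for the 9 genes as deposited (black, ± SE), with each library left out (grey), with median centring (green) and with quantile normalization (purple); the dashed line is the median of all genes tested, 0.26. Socs2, Cish and Socs3 stay at or above 0.67 and Igfbp5 at or below -0.32 in the settings drawn, while Jak2, Igf1, Stat5a and Stat5b lie on both sides of 0.

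The order of the levels was not the same in the 2 genotypes. By mean TPM in WT muscle, Igfbp5 stood highest (102), followed by Ghr (38.9), Stat5b (38.5), Cish (30.4), Socs2 (22.2), Jak2 (14.1), Igf1 (9.24), Stat5a (2.89) and Socs3 (2.09). In homozygous muscle it was Igfbp5 (67.7), Cish (66.4), Socs2 (56.8), Ghr (53.2), Stat5b (46.6), Jak2 (14.3), Socs3 (11.7), Igf1 (9.38) and Stat5a (3.66). Igfbp5 over Cish, Ghr over Stat5b, Socs2 over Jak2, Jak2 over Igf1 and Igf1 over Socs3 each held in 5 of 6 libraries. Cish lay above Ghr in 2 of 6 libraries, 1 of each genotype, so these neighbours do not differ beyond their spread. Socs2 lay above Stat5b in all 3 homozygous libraries and below it in all 3 WT libraries. Socs3 lay above Stat5a in all 3 homozygous libraries and in 1 WT library.

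The genes whose pattern over the 6 libraries was nearest to that of Socs2 were Casp4, Nr2c2, Gm14288, Lrtm2, Lrrc2 and Rere, among 11098 genes compared. The measure was the root mean square difference of log2(TPM + 1) after each gene was centred on its mean, which was 0.130 for Casp4, 0.166 for Nr2c2, 0.201 for Gm14288, 0.207 for Lrtm2, 0.210 for Lrrc2 and 0.214 for Rere. The median gene lay at 0.629. Lrrc2 was 56.6, 71.2 and 57.7 TPM in homozygous and 39.01, 29.5 and 15.1 TPM in WT muscle, so it followed the order of Socs2 in WT muscle. Among the other 8 members the nearest were Ghr (rank 1216, 0.475) and Cish (rank 1334, 0.482), and Igfbp5 was the farthest (rank 10714, 0.976). Likeness over 6 libraries is a description and says nothing of shared control.

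The rest of the pathway was read from 8 lists of 72 genes, of which 57 passed the filter. In limma 0 of the 57 passed an adjusted p under 0.05 (smallest 0.168), as did 0 of all genes. With array weights 9 did (15.8%), all higher in homozygous muscle, beside 7.30% of all genes. At an unadjusted p under 0.05 there were 25 higher and 0 lower, beside 23.7% higher and 0.55% lower among all genes. In 29 of the 57 (50.9%) every homozygous library lay above every WT library, and in 0 every one lay below, beside 34.7% and 0.73% of all genes. The median difference was 0.37 on the log2 scale against 0.26 for all genes. The lists were chosen with earlier results of these data known, so nothing is read from these counts or this median.

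Among the other JAK and STAT genes, 7 of 8 were tested and all 7 had a higher mean in homozygous muscle, as had 85.8% of all genes. Their median log2 difference was 0.30, against 0.26 for all genes. Stat3, the factor that gp130 receptors use, was 10.9, 15.2 and 14.2 TPM in homozygous and 8.82, 9.53 and 6.46 TPM in WT muscle, a log2 difference of 0.64 (SE 0.19; limma, adjusted p 0.168). Jak1, the kinase of gp130 and interferon receptors, was 45.9, 37.8 and 37.3 against 30.1, 35.8 and 31.6 TPM, a log2 difference of 0.30 (limma, adjusted p 0.222).

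All 5 other SOCS genes were tested, with a median log2 difference of 0.49. Socs7 was 10.95, 12.02 and 9.99 TPM in homozygous and 8.02, 7.54 and 6.98 TPM in WT muscle, a log2 difference of 0.49 (SE 0.14; limma, adjusted p 0.168). Socs6 was 12.2, 14.2 and 14.1 against 10.4, 11.6 and 4.102 TPM. Socs1, a brake on interferon signalling that is outside the naming rule and was picked after its values were seen, was 31.01 TPM in homozygous replicate 1 and 0.408 to 4.02 TPM in the other 5. Cish, Socs3 and Socs1 were thus all highest in homozygous replicate 1, and Socs2 was not.

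SOCS proteins work as adaptors of a ubiquitin ligase built on Elongin B, Elongin C, Cullin 5 and Rnf7. These 4 genes had a median log2 difference of 0.26, the same as all genes. Eloc was 138, 143 and 147 TPM in homozygous and 122, 114 and 114 TPM in WT muscle (limma, adjusted p 0.195). Cul5 was 17.8, 19.5 and 20.5 against 15.1, 17.9 and 12.3 TPM (limma, adjusted p 0.227).

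Among phosphatases, PIAS proteins and other brakes, 8 of 9 were tested, with a median log2 difference of 0.40 and 5 without overlap, all higher, where 34.7% of all genes were so. Ptpn11, which encodes the phosphatase SHP2, had a log2 difference of 0.58 (SE 0.19), and Sh2b3, which encodes the adaptor LNK that restrains JAK2, one of 0.46 (SE 0.16). Neither passed the threshold (limma, adjusted p 0.168 and 0.177). Among 10 adaptor genes all 10 had a higher mean in homozygous muscle, as had 85.8% of all genes. Their median log2 difference was 0.31, against 0.26 for all genes. Pik3r1, a regulatory subunit of PI3-kinase, was 7.15, 9.15 and 6.74 against 4.42, 3.95 and 3.61 TPM, a log2 difference of 0.79 (SE 0.16; limma, adjusted p 0.168). Irs2, a docking protein of the insulin and IGF1 receptors, was 12.5, 9.71 and 8.995 against 5.34, 6.26 and 2.47 TPM.

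Of 14 other receptors that signal through JAKs, 7 were tested, with a median log2 difference of 0.44. All 7 had a higher mean in homozygous muscle, as had 85.8% of all genes, and 6 had no overlap, as had 34.7% of all genes. Il6st, which encodes gp130, was 36.1, 36.7 and 42.2 TPM in homozygous and 25.5, 25.8 and 15.1 TPM in WT muscle, a log2 difference of 0.80 (SE 0.21; limma, adjusted p 0.168). Ifngr2, a chain of the interferon gamma receptor, was 31.3, 36.9 and 41.3 against 29.4, 24.0 and 18.8 TPM. The prolactin receptor gene Prlr, whose product also activates STAT5, lay at 0.189 TPM or less in every library, below the filter; it was named after its values were seen.

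In the rest of the IGF system 9 of 13 genes were tested, with a median log2 difference of 0.39. Igf2r, the receptor that clears IGF2, was 9.45, 9.63 and 7.96 against 6.06, 5.98 and 5.68 TPM, a log2 difference of 0.53 (SE 0.14; limma, adjusted p 0.168). Insr, the insulin receptor gene, was 8.73, 10.1 and 9.24 against 7.42, 6.05 and 4.099 TPM. Igfbp1 was listed at 0 in all 6 libraries. The tested genes with a log2 difference below 0 were Igf2 (-0.17), Igfals (-0.29) and Igfbp7 (-0.21), and these 4 genes were named after their values were seen.

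Among 9 genes that respond to STAT5 in other tissues, 7 were tested, with a median log2 difference of 0.47 and 3 without overlap, close to the 34.7% of all genes. Mcl1, a survival gene, was 69.1, 77.6 and 61.3 TPM in homozygous and 51.5, 47.6 and 37.1 TPM in WT muscle, a log2 difference of 0.61 (SE 0.16; limma, adjusted p 0.168). Bcl6, a repressor that STAT5 lowers in liver, was 29.9, 22.7 and 21.1 against 15.4, 18.6 and 17.8 TPM, a log2 difference of 0.47 (SE 0.17; limma, adjusted p 0.172). Myc, a growth gene named after its value was seen, had a log2 difference of -0.07, the only one below 0.

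**Figure D5:**
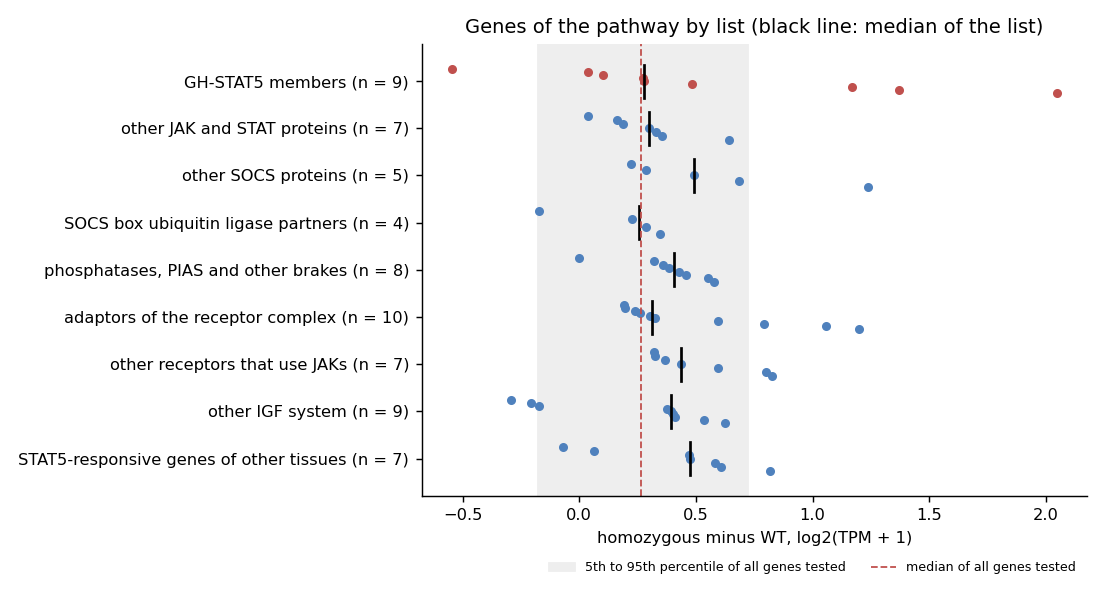
Log2 differences, homozygous minus WT (horizontal axis), of the tested genes of each list (rows, 1 point per gene, black line at the list's median); the grey band is the 5th to 95th percentile of all 11099 genes tested, -0.18 to 0.72, and the dashed line their median. Socs2, Cish and Socs3 lie to the right of the band and Igfbp5 to its left, while most other pathway genes lie inside it. Among the others outside it are Socs1 (1.24), Irs1 (1.20) and Irs2 (1.06) to the right and Igfals (-0.29) and Igfbp7 (-0.21) to the left.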

How the data were processed

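Poly-A selected, stranded RNA-seq libraries of quadriceps muscle were compared between 3 homozygous and 3 WT mice. The authors deposited 1 table of TPM in which rows are Ensembl transcripts and columns are libraries, per the file headers; each column summed to 1000000. The submitters' processing notes name FastQC, Trimmomatic, HISAT2, kallisto and mm10; roles, versions and annotation release: not given in the sources used here. All columns matched a sample (0 unmatched).

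TPM was summed per gene symbol and put on the log2(TPM + 1) scale. The 11099 genes that reached 1 TPM in 3 libraries and 21165 isoforms chosen alike were tested with limma 3.58.1 in R 4.3.3 (trend, robust, genotype only), with Benjamini-Hochberg adjustment over all features and a threshold of 0.05. On simulated data built on the 11099 genes, a change of 1 (log2) was recovered for 51% of altered genes, a change of 2 for 90% and a change of 0.5 for 0%. The simulated spread was drawn for each gene on its own. It held no deviation shared across a library and no shift of all genes, so these shares may not hold for the data.

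Positions came from GENCODE M21 on GRCm38, which held all 54 isoforms, and promoters from RefSeq. Fragments were estimated from genes with 1 transcript: after scaling, 66.7% to 77.5% of low values were whole numbers to within 0.03 (by chance, 6%).

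The members and lists were chosen with earlier results of these data known. Besides the 9 members, the text names of each pathway list the 2 tested genes with the smallest p, the 6 genes nearest to Socs2, isoforms with at least 10% of a member, and the top markers of a list; minor isoforms of Cish and Igfbp5 and the genes said to be so were named after their values were seen. The summed level of 1 marker list is not reported here. Alternatives were quantile normalization, median centring, no filter, a pseudocount of 0.1, array weights, a replicate block and leaving out each library. Replicate numbers were shared between groups without a stated pairing; same-numbered deviations correlated at -0.071, 0.061 and -0.013, so no pairing was used.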

Additional observations from a re-analysis of the deposited data

How the results depend on the processing

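Each result was recomputed under 12 alternatives. Over the 9 genes this gave 108 values, of which 95 moved by less than the within-group SD, 1 moved by more (Stat5b, 0.025 with quantile normalization) and 12 changed sign. Socs2, Cish, Socs3, Ghr and Igfbp5 kept their direction in all 12. Sign changes with quantile normalization were Jak2 -0.25, Stat5a -0.022 and Igf1 -0.18, and with median centring Jak2 -0.26, Stat5a -0.024, Stat5b -0.029 and Igf1 -0.20. Leaving out each library gave -0.067 to 0.24 for Jak2 and -0.31 to 0.34 for Igf1. Median centring moved the median of all genes from 0.26 to -0.037; for the other changes the cause was not tested.

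Across settings, the count of genes past the threshold, 0 of 11099, was 810 with array weights and 0 to 2 without each library (2 without WT replicate 1 and 1 without WT replicate 2). The count of pathway genes, 0 of 57, was 9 with array weights (Stat3, Ptpn1, Sh2b3, Irs1, Irs2, Pik3r1, Il6st, Igf2r and Igfbp3) and 0 otherwise. The count of isoforms, 9 of 21165, was 3 with quantile normalization, 5 with median centring, 4 with a pseudocount of 0.1, 14 with array weights and 0 with no filter, which tests 70819. Without each library it ran from 0 to 36, with 36 without WT replicate 1, 10 without WT replicate 2, 1 without homozygous replicate 3 and 0 without any 1 of the other 3. No isoform of the 9 genes was among them in any setting. With the replicate number as a block, 0 genes, 0 pathway genes and 0 isoforms passed; the numbers are not known to pair mice. The estimated depth limits Socs3 in WT muscle and Stat5a most.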
